A study of Drosophila melanogaster with 8 samples.

Results

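The RNAs described here are the transcripts that anti-HA beads retained more in testes with HOW(S)-HA than in testes without it. They were 47 of 30069 quantified transcripts of Drosophila melanogaster, and 47 of the 13172 that could be judged (0.357%). Messages were measured by RIP-seq, in which the RNA that stays with a tagged protein on antibody beads, the pull-down, is compared with that of its lysate, the input. The tested line was UAS-HOW-S-HA/nanos-GAL4, with 3 pull-downs and 3 inputs. The parent line, nanos-GAL4/nanos-GAL4, gave 1 pull-down with the same anti-HA beads and 1 input. Both lines carry the GAL4 driver, and only the HOW(S)-HA line carries the tagged protein. The nanos promoter drives expression in germline stem cells and early spermatogonia, which are a small share of the cells of a whole testis. Each library was made from testes of many flies combined, so a change in the number of cells of a type and a change in RNA per cell cannot be told apart.

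HOW (Held Out Wings) is an RNA-binding protein of the STAR family and is related to vertebrate Quaking. Proteins of this family hold RNA through a KH domain and its flanking regions, and bind short motifs around a core of ACUAA or CUAAC type, often in the untranslated part of a message. Splicing of how gives long and short proteins, HOW(L) and HOW(S), and both act on the stability or processing of the messages they hold. In the fly testis HOW is found in germline stem cells and dividing spermatogonia, where it is known for a part in keeping these cells.

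For each pull-down and its own input, the value of a transcript was log2(TPM in pull-down / TPM in input) minus the median of that pair over eligible transcripts. TPM is the abundance of a transcript scaled to transcript length and to the total of the library. A value of 0 is therefore the middle of the pair, and a value of 1 is retention 2 times that of the middle transcript. Eligible transcripts were over 300 and under 10000 nucleotides long, had at least 20 estimated reads in all 8 libraries and were outside the 200 most abundant of the inputs. A transcript was a member when its value was 0.7 or more in each of the 3 HOW(S)-HA pairs and at least 0.7 above the nanos-GAL4 value in each, with a nanos-GAL4 value under 1. The members were thus chosen by their measured pull-down over input values in all 4 pairs, so their retention is a description and carries no test. There is 1 nanos-GAL4 pair, so its own spread is unknown, and every distance from it shares the error of that pair.

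The files do not pair transcript identifiers with genes, and none of the 47 identifiers (0 of 47) was in the RefSeq gene table used here. The study and its supplement pair 31 transcripts with names. Of these, 15 were eligible and 1 was a member, how-RB. Other members are called by their length, with the identifier for the 2 that stood farthest from nanos-GAL4. Markers of testis cell types and signalling pathway lists were for this reason not analysed here, and whether several members belong to one gene is not known. No transcript sequence was used here, so binding motifs were not analysed and none is shown.

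The libraries held 9.13 M to 24.0 M estimated reads, and the shallowest was HOW(S)-HA input 1. The uncentred median log2 ratio over eligible transcripts was 1.17, 0.73 and 0.26 in HOW(S)-HA pairs 1, 2 and 3, and 0.68 in the nanos-GAL4 pair. The spread of centred values over transcripts (SD) was 0.899, 0.763 and 0.580 in the HOW(S)-HA pairs and 0.734 in nanos-GAL4. Pair 3 was thus the narrowest, and 11.8% of eligible transcripts reached 0.7 there, against 18.8% in pair 1, 16.5% in pair 2 and 16.5% in nanos-GAL4.

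Most strongly retained RNA was retained in both lines. A value of 0.7 or more in all 3 HOW(S)-HA pairs was reached by 719 of the 13172 eligible transcripts (5.46%), and 615 of the 719 had 0.7 or more in nanos-GAL4 too. The nanos-GAL4 value was under 1 for 187 of the 719. Those at least 0.7 above nanos-GAL4 in every pair numbered 49, and 2 of them fell out because nanos-GAL4 was at 1 or more.

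Distances of this size ran in both directions. Without the other 2 conditions, 222 transcripts (1.69%) had all 3 HOW(S)-HA values at least 0.7 above nanos-GAL4, and 258 (1.96%) had all 3 at least 0.7 below it. This second set is called the mirror set. Of the 222, 173 had a HOW(S)-HA value under 0.7, and in 136 the nanos-GAL4 value was -0.7 or less. Of the 258 mirror transcripts, 218 had a nanos-GAL4 value of 0.7 or more. The whole rule with every sign turned found 6 transcripts (0.0456%). The scatter of both lines shows the members above the equal-value line and a larger mirror set below it.

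**Figure D1:**
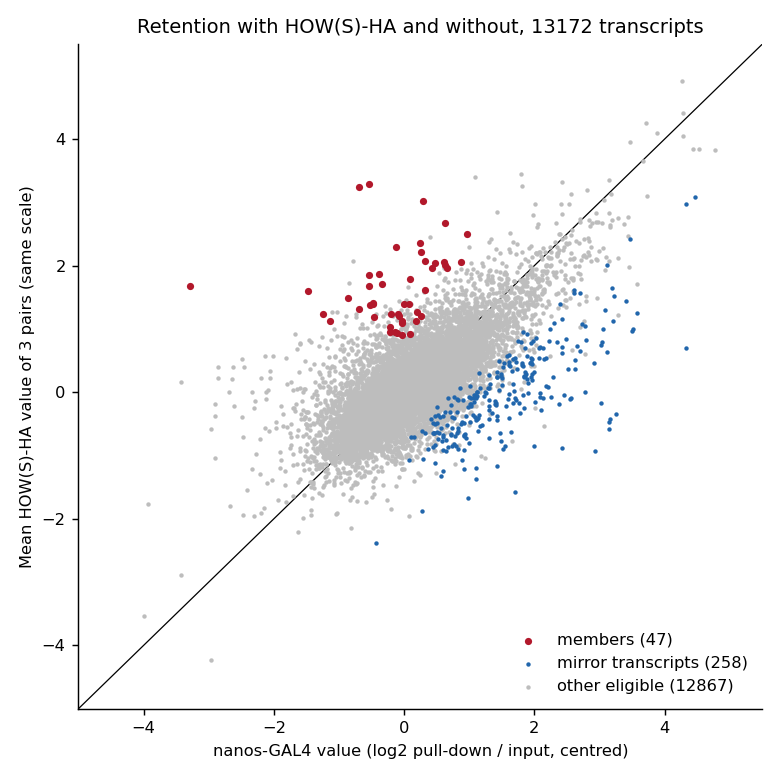
Each point is 1 of 13172 eligible transcripts, with the mean value of the 3 HOW(S)-HA pairs on the vertical axis and the value of the nanos-GAL4 pair on the horizontal axis, both centred log2(pull-down / input). Red points are the 47 members, blue points the 258 mirror transcripts, and the line marks equal values. The members form a sparse upper edge of the cloud, and the mirror set a denser lower one.

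Across the 47 members the median value was 1.41, 1.33 and 1.42 in HOW(S)-HA pairs 1, 2 and 3, and -0.08 in nanos-GAL4, where it ranged from -3.28 to 0.97. The lowest HOW(S)-HA value of a member stood between 0.71 and 4.60 above nanos-GAL4, with a median of 1.03. It was 2 or more for 8 members and 1 or more for 25. In nanos-GAL4 the value was below 0 for 28 of the 47 (59.6%, against 50% of eligible transcripts by construction), at -0.7 or less for 5, and at 0.7 or more for 2. The typical member was thus near the middle of the nanos-GAL4 pair.

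Members differed in how evenly the 3 HOW(S)-HA pairs retained them. The SD of the 3 values had a median of 0.423, against 0.315 over all eligible transcripts. The 3 values lay within 0.5 of each other for 14 members (29.8%, against 41.6% of eligible transcripts). They spread over more than 1 for 18 (38.3%, against 25.9%). The highest value was in pair 1 for 20 members (42.6%), in pair 2 for 11 (23.4%) and in pair 3 for 16 (34.0%). Over eligible transcripts these shares were close to that, at 39.7%, 25.5% and 34.9%, so nothing is read from which pair was highest.

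**Figure D2:**
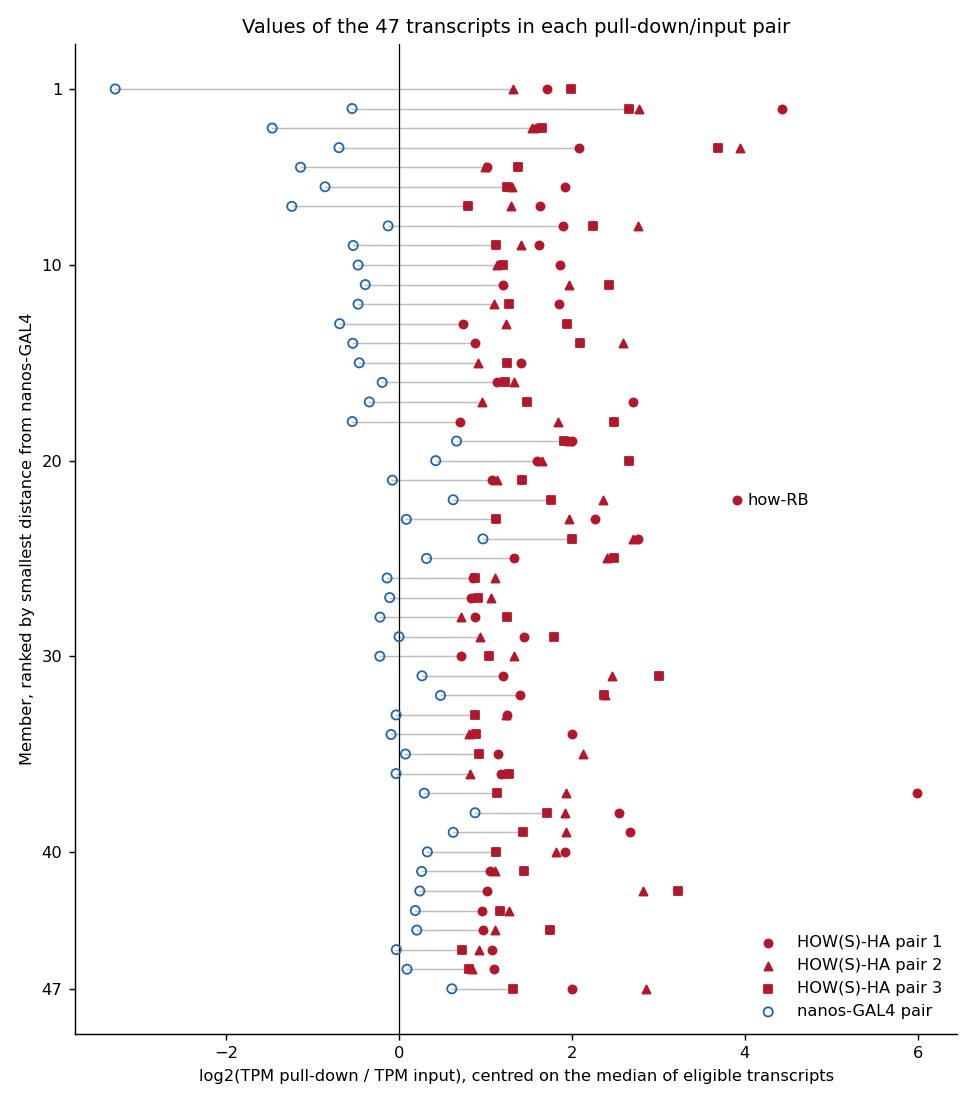
Each row is 1 of the 47 members, ranked by the distance between its lowest HOW(S)-HA value and its nanos-GAL4 value (grey line). Filled red symbols are HOW(S)-HA pairs 1, 2 and 3, open blue circles the nanos-GAL4 pair, and the axis is centred log2(pull-down / input). The top 8 rows have a distance of 2 or more, and the lower rows mostly have nanos-GAL4 values close to 0.

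The widest distance was that of FBtr0299845, 6877 nucleotides long. Its TPM was 1.04, 3.51 and 2.72 in HOW(S)-HA pull-downs 1, 2 and 3, and 0.345 in the nanos-GAL4 pull-down. In the inputs it was 0.141, 0.850 and 0.569 with HOW(S)-HA, and 2.10 in nanos-GAL4. HOW(S)-HA pull-downs were therefore all above the nanos-GAL4 pull-down, while HOW(S)-HA inputs were all below the nanos-GAL4 input. The values were 1.71, 1.32 and 1.99 with HOW(S)-HA, against -3.28 in nanos-GAL4. In log2 TPM centred on each library's median, HOW(S)-HA minus nanos-GAL4 was 2.94 in the pull-downs and -1.97 in the inputs (means of 3), so both entered its distance.

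FBtr0339087, of 2010 nucleotides, was the member with the highest mean retention. It had 63.2, 97.7 and 63.1 TPM in the HOW(S)-HA pull-downs and 6.96 TPM in the nanos-GAL4 pull-down. Its inputs held 1.30, 8.64 and 8.34 TPM with HOW(S)-HA and 6.35 TPM in nanos-GAL4. Here the inputs overlapped and the pull-downs did not, with every HOW(S)-HA pull-down far above nanos-GAL4. The values were 4.44, 2.77 and 2.66 with HOW(S)-HA, against -0.54. Input 1 was lower than inputs 2 and 3, and the value of pair 1 is the highest of the 3.

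A transcript of 1156 nucleotides was the most even of the widely separated members. It had 30.9, 24.7 and 23.3 TPM in the HOW(S)-HA pull-downs and 3.96 TPM in the nanos-GAL4 pull-down. The inputs were close together, at 4.56, 5.13 and 6.199 TPM with HOW(S)-HA and 6.85 TPM in nanos-GAL4. The HOW(S)-HA values were 1.59, 1.54 and 1.65 (SD 0.056), against -1.47, and the fold of the smallest distance was 8.03. In this transcript the inputs contributed almost nothing, with a difference of 0.01 between lines in centred log2 TPM.

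The transcript of 3963 nucleotides was scarce in every library except the HOW(S)-HA pull-downs. Its inputs held 0.373, 0.321 and 0.447 TPM with HOW(S)-HA and 0.510 TPM in nanos-GAL4. The pull-downs held 3.56, 8.20 and 6.89 TPM with HOW(S)-HA, against 0.504 TPM in nanos-GAL4. Its values were 2.08, 3.95 and 3.68, against -0.70, so retention varied between pairs by more than that of the transcript of 1156 nucleotides. Its lowest library held 47.4 estimated reads.

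The other 4 members with a smallest distance of 2 or more were 1419, 8158, 3665 and 1619 nucleotides long. That of 1419 nucleotides had 30.9, 35.7 and 35.3 TPM in HOW(S)-HA pull-downs and 8.96 TPM in the nanos-GAL4 pull-down, and its inputs differed between lines by 0.00 in centred log2 TPM. That of 3665 nucleotides had 41.8, 33.7 and 31.6 TPM in HOW(S)-HA pull-downs and 8.98 TPM in the nanos-GAL4 pull-down. It rested on the most reads of the 8, with 701 in its lowest library. The transcripts of 8158 and 1619 nucleotides were scarce, with mean input levels of 0.272 and 0.566 TPM and 39 and 29 reads in their lowest library. All 8 members with a distance of 2 or more had every HOW(S)-HA pull-down above the nanos-GAL4 pull-down.

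Members with smaller distances showed the same kinds of pattern. The transcript of 2507 nucleotides had 22.4, 21.6 and 18.1 TPM in HOW(S)-HA pull-downs and 4.39 TPM in the nanos-GAL4 pull-down. Its inputs held 4.33, 3.33 and 2.80 TPM with HOW(S)-HA and 3.60 TPM in nanos-GAL4. The inputs overlapped and the pull-downs did not, and the values were 1.20, 1.97 and 2.43, against -0.39. The transcript of 1532 nucleotides was similar, with 27.5, 51.9 and 36.5 TPM in HOW(S)-HA pull-downs and 7.76 TPM in the nanos-GAL4 pull-down. Its inputs held 5.33, 5.67 and 3.79 TPM with HOW(S)-HA and 4.04 TPM in nanos-GAL4, and its values were 1.20, 2.47 and 3.002, against 0.26.

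The transcript of 1938 nucleotides had 21.2, 28.9 and 16.5 TPM in HOW(S)-HA pull-downs and 12.7 TPM in the nanos-GAL4 pull-down, with inputs of 3.07, 6.58 and 6.30 TPM with HOW(S)-HA and 11.5 TPM in nanos-GAL4. All 3 HOW(S)-HA pull-downs were above nanos-GAL4 and all 3 inputs below it. Its values were 1.62, 1.41 and 1.12, against -0.53. The transcript of 3503 nucleotides had 9.82, 3.45 and 1.62 TPM in HOW(S)-HA pull-downs and 4.11 TPM in the nanos-GAL4 pull-down, with inputs of 0.669, 1.07 and 0.484 TPM with HOW(S)-HA and 3.27 TPM in nanos-GAL4. Only pull-down 1 was above nanos-GAL4, while all 3 inputs were below it. Its values were 2.71, 0.96 and 1.48, against -0.35.

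Some even members rested on few reads. The transcript of 2863 nucleotides had 2.19, 1.91 and 0.784 TPM in HOW(S)-HA pull-downs and 0.919 TPM in the nanos-GAL4 pull-down, with inputs of 0.243, 0.296 and 0.174 TPM with HOW(S)-HA and 0.363 TPM in nanos-GAL4. Its values of 2.00, 1.96 and 1.91, against 0.66, had the lowest SD of the members (0.050), yet its lowest library held 21.7 reads. The transcript of 1458 nucleotides had 3.45, 2.52 and 2.12 TPM in HOW(S)-HA pull-downs and 2.54 TPM in the nanos-GAL4 pull-down, with inputs of 0.699, 0.606 and 0.752 TPM with HOW(S)-HA and 1.82 TPM in nanos-GAL4. Its values were 1.13, 1.32 and 1.23, against -0.20, and its lowest library held 28.9 reads. The transcript of 1834 nucleotides was as scarce, with 24 reads in its lowest library, but uneven, with values of 0.87, 2.59 and 2.09, against -0.54.

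The transcript of 2057 nucleotides had 7.40, 6.02 and 4.70 TPM in HOW(S)-HA pull-downs and 2.87 TPM in the nanos-GAL4 pull-down, with inputs of 0.910, 1.70 and 1.62 TPM with HOW(S)-HA and 2.50 TPM in nanos-GAL4. It was higher in every HOW(S)-HA pull-down and lower in every HOW(S)-HA input, with values of 1.85, 1.09 and 1.27, against -0.48. The transcript of 7150 nucleotides had values of 1.59, 1.66 and 2.66, against 0.42, with pull-downs of 1.09, 0.974 and 0.613 TPM with HOW(S)-HA and 0.910 TPM in nanos-GAL4. Pull-down 3 alone was below nanos-GAL4.

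By mean TPM in the HOW(S)-HA pull-downs, the 5 most abundant members were those of 896, 1980, 2010, 2131 and 493 nucleotides. The transcript of 896 nucleotides had 108.6, 115.6 and 79.4 TPM in HOW(S)-HA pull-downs and 54.3 TPM in the nanos-GAL4 pull-down. Its inputs held 13.3, 31.8 and 28.8 TPM with HOW(S)-HA and 47.2 TPM in nanos-GAL4. It was thus higher in every HOW(S)-HA pull-down and lower in every HOW(S)-HA input. The values were 1.86, 1.13 and 1.20, against -0.47.

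The transcript of 2131 nucleotides had the most reads of all members, with 1046 in its lowest library. It had 71.8, 73.1 and 72.9 TPM in the HOW(S)-HA pull-downs and 50.1 TPM in the nanos-GAL4 pull-down. Its inputs held 16.3, 20.5 and 18.1 TPM with HOW(S)-HA and 27.2 TPM in nanos-GAL4. Levels within each HOW(S)-HA condition were nearly equal (pull-down 72.6 ± 0.665 TPM, input 18.3 ± 2.12 TPM, SD, n = 3), yet the values were 0.97, 1.11 and 1.74, since each pair was centred on its own median. Against 0.20 in nanos-GAL4, this left a smallest distance of 0.77, a fold of 1.71.

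The transcript of 493 nucleotides, the shortest member, had 34.8, 66.3 and 49.5 TPM in HOW(S)-HA pull-downs and 25.97 TPM in the nanos-GAL4 pull-down. Its inputs held 6.17, 7.57 and 7.34 TPM with HOW(S)-HA and 13.0 TPM in nanos-GAL4. Its values were 1.32, 2.40 and 2.49, against 0.32.

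The transcript of 1980 nucleotides had the least even values of the members. Its HOW(S)-HA pull-downs held 124.5, 84.8 and 32.8 TPM and the nanos-GAL4 pull-down 105.6 TPM. Its inputs held 0.867, 13.4 and 12.5 TPM with HOW(S)-HA and 54.0 TPM in nanos-GAL4. The value was 6.0 in pair 1, 1.93 in pair 2 and 1.13 in pair 3, against 0.29 in nanos-GAL4. Only 1 HOW(S)-HA pull-down was above nanos-GAL4, and input 1, the library of lowest depth, stood far below inputs 2 and 3.

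Apart from a shift that all transcripts of a pair share, the distance of a member from nanos-GAL4 is the difference between lines in the pull-downs minus that in the inputs. Both were read on log2 TPM centred on the median of each library, HOW(S)-HA minus nanos-GAL4, as means of the 3 pairs. Over members the pull-down difference had a median of 0.99 and ranged from -0.75 to 3.84, against a median of -0.08 over eligible transcripts. The input difference had a median of -0.50 and ranged from -2.96 to 0.66, against -0.02 over eligible transcripts. The pull-down difference was 0.7 or more in 31 of the 47, beside 6.41% of eligible transcripts, and the input difference was -0.7 or less in 20, beside 4.96%. In 17 members (36.2%) the input difference with its sign turned was larger than the pull-down difference, beside 55.8% of eligible transcripts. These shares follow in part from the rule, which used the same libraries, and nothing is read from them.

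On TPM as deposited, all 3 HOW(S)-HA pull-downs were above the nanos-GAL4 pull-down for 26 members, beside 6.82% of eligible transcripts. For 18 members 1 or 2 of the 3 were above it, and for 3 members none was. All 3 HOW(S)-HA inputs were below the nanos-GAL4 input for 37 members (65.8% of eligible transcripts). The 26 had a median smallest distance of 1.33 and a median input difference of -0.17. The 18 had a median smallest distance of 0.94 and a median input difference of -1.04. The split uses the libraries that chose the members, so nothing is read from this either.

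**Figure D3:**
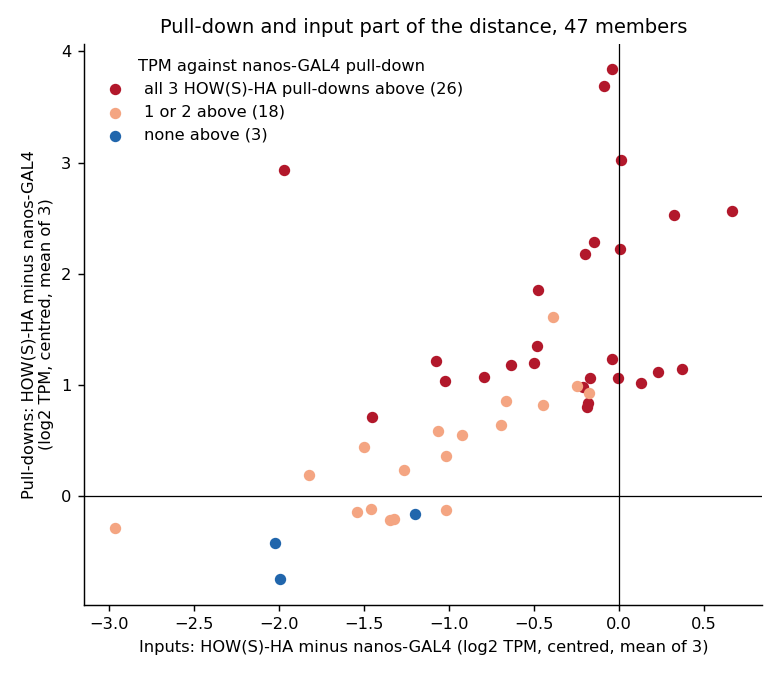
Each point is 1 of the 47 members, with the difference HOW(S)-HA minus nanos-GAL4 in the pull-downs on the vertical axis and in the inputs on the horizontal axis, both in centred log2 TPM (mean of 3). Colours give how many of the 3 HOW(S)-HA pull-downs had a higher TPM than the nanos-GAL4 pull-down. Members at the upper middle differ mainly in the pull-downs, up to 3.84, and those at the lower left mainly in the inputs, down to -2.96.

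The 3 members with no HOW(S)-HA pull-down above nanos-GAL4 were 3384, 3313 and 2129 nucleotides long. The transcript of 3384 nucleotides had 5.87, 5.62 and 4.23 TPM in HOW(S)-HA pull-downs and 8.57 TPM in the nanos-GAL4 pull-down. Its inputs held 0.982, 1.81 and 1.48 TPM with HOW(S)-HA and 7.38 TPM in nanos-GAL4. Its values of 1.41, 0.91 and 1.25, against -0.46, thus came with a lower level in both kinds of HOW(S)-HA library. The transcript of 2129 nucleotides likewise had 2.73, 1.81 and 0.731 TPM in HOW(S)-HA pull-downs and 3.18 TPM in the nanos-GAL4 pull-down, with inputs of 0.319, 0.310 and 0.279 TPM with HOW(S)-HA and 1.59 TPM in nanos-GAL4. For all 3 of these members every HOW(S)-HA input was below the nanos-GAL4 input, as for 65.8% of eligible transcripts on TPM as deposited. There was 1 nanos-GAL4 input, and the choice of members used it. Whether the lysates of the lines differed in these RNAs was not tested.

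how-RB is an isoform of how, the gene that encodes the HOW proteins. Per the study it is the message for HOW(S), the protein that was tagged. The gene lies on chromosome 3R from 22042191 to 22079321 in the Release 6 assembly. how-RB, of 1759 nucleotides, had 15.4, 7.17 and 2.19 TPM in HOW(S)-HA pull-downs 1, 2 and 3, and 2.51 TPM in the nanos-GAL4 pull-down. Its inputs held 0.457, 0.844 and 0.538 TPM with HOW(S)-HA and 1.02 TPM in nanos-GAL4. Pull-downs 1 and 2 were thus above nanos-GAL4 and pull-down 3 was not. The values were 3.91, 2.36 and 1.76, against 0.63, and the smallest distance of 1.13 placed it 22nd of the 47. Only 23.6 estimated reads stood behind the HOW(S)-HA input of lowest count.

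The how isoforms share reads, and Salmon divides shared reads between them. Summed over 6 isoforms, how had 26.01, 17.9 and 9.22 TPM in HOW(S)-HA pull-downs and 10.2 TPM in the nanos-GAL4 pull-down. The summed inputs held 2.73, 3.56 and 3.19 TPM with HOW(S)-HA and 3.65 TPM in nanos-GAL4. On TPM as deposited, 65.8% of eligible transcripts likewise had all 3 HOW(S)-HA inputs below nanos-GAL4. Whether how RNA differed between the lysates is therefore not read from these levels. The summed values were 2.08, 1.60 and 1.27, against 0.81, and the distance of pair 3 was then under 0.7. how-RB took 59.3%, 40.1% and 23.7% of how TPM in HOW(S)-HA pull-downs and 24.6% in the nanos-GAL4 pull-down. In the inputs its share was 16.8%, 23.7% and 16.9% with HOW(S)-HA and 27.9% in nanos-GAL4. Reads of the transgene's own message, which carries how sequence, cannot be told apart from those of the gene in these files. Of the other isoforms, how-RC had 1.38, 1.37 and 1.14 against 0.91, and how-RE had 0.74, -0.34 and 0.78 against 0.85, so neither met the rule.

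Members were less abundant in the inputs than other eligible transcripts. Their mean input level had a median of 1.02 TPM (range 0.168 to 30.3), against 4.34 TPM over eligible transcripts, and 23 of the 47 were under 1 TPM (48.9% against 15.6%). The mirror set had a similar median of 1.26 TPM, and the 615 transcripts retained in both lines had 1.55 TPM. Members had a median length of 2507 nucleotides (493 to 9297), against 1892 for eligible, 2888 for mirror and 3380 for transcripts retained in both lines. A low input level was thus common to all 3 sets. Each set was chosen on ratios that have the input as divisor, so nothing is read from this. In the HOW(S)-HA pull-downs the mean level had a median of 4.70 TPM for members and 6.76 TPM over eligible transcripts. It was 2.26 TPM for the mirror set and 7.51 TPM for transcripts retained in both lines.

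Few reads stood behind many members. The lowest library of a member had a median of 54.0 estimated reads, against 161 over eligible transcripts, and 21 members had under 50 there (44.7% against 17.5%). The counting error of the nanos-GAL4 value, as a standard error on the log2 scale, was between 0.029 and 0.356 with a median of 0.154. This covers counting error only, and neither the spread between lysates nor the error of dividing shared reads between transcripts.

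Most members shared reads with another transcript. An estimated count that is whole (within 0.0015) arises where no read had to be divided. Counts were whole in all 8 libraries for 2 of 47 members (4.26%), against 31.5% of eligible transcripts, 18.05% of those retained in both lines and 0 of 258 mirror transcripts. Counts were whole in no library for 38 members (80.9%, against 57.6%). The gap held at each input level: 1 of 23 members against 18.6% under 1 TPM, 1 of 18 against 30.4% from 1 to under 10 TPM, and 0 of 6 against 39.7% at 10 TPM or more. Whether the division of reads moved the values of the members was not tested.

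The 2 members with whole counts throughout were 3279 and 2764 nucleotides long. That of 3279 nucleotides had 8.60, 9.25 and 5.81 TPM in HOW(S)-HA pull-downs and 5.45 TPM in the nanos-GAL4 pull-down. Its inputs held 2.14, 2.68 and 2.56 TPM with HOW(S)-HA and 3.68 TPM in nanos-GAL4. Its values were 0.83, 1.06 and 0.92, against -0.11, with at least 222 reads in every library. That of 2764 nucleotides had values of 1.07, 0.93 and 0.73, against -0.03, with 36 reads in its lowest library.

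A pair that the choice did not use gives a view of repeatability. The rule was applied to 2 HOW(S)-HA pairs and nanos-GAL4, and the own value of the third HOW(S)-HA pair was read. Without pair 1, 147 transcripts were chosen, and 58 of them (39.5%) had 0.7 or more in pair 1, against 18.8% of eligible transcripts. Without pair 2 it was 52 of 88 (59.1%, against 16.5%), and without pair 3 it was 66 of 166 (39.8%, against 11.8%). The median in the pair left out was 0.51, 0.93 and 0.52 for pairs 1, 2 and 3, against 1.31, 1.32 and 1.39 in the pairs used. The value in the third pair was above 0 for 68.0%, 86.4% and 79.5% of the chosen transcripts.

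Retention shared with nanos-GAL4 recurred more often. Transcripts at 0.7 or more in the same 2 HOW(S)-HA pairs and in nanos-GAL4 numbered 831, 668 and 908 for pairs 1, 2 and 3 left out. Of these, 74.0%, 92.1% and 67.7% were at 0.7 or more in the pair left out. With no condition on nanos-GAL4, the shares were 66.8%, 86.3% and 58.4%. The shared set had to be high in nanos-GAL4 too, while the rule asks for a lower value there. The order of the shares thus follows in part from the choice, and nothing is read from it. These shares describe transcripts, which are not replicates, and carry no test.

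**Figure D4:**
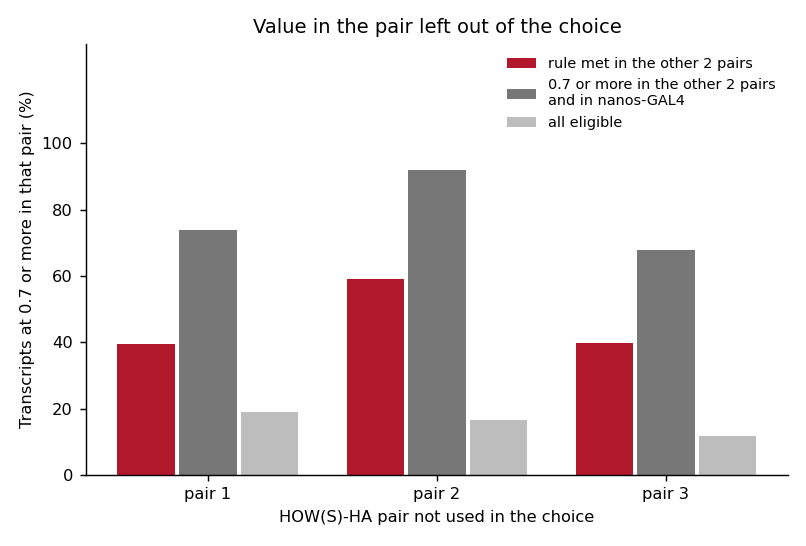
For each HOW(S)-HA pair, bars give the percentage of transcripts with a value of 0.7 or more in that pair, which the choice did not use. Red bars are transcripts that met the rule in the other 2 pairs, dark grey bars those at 0.7 or more in the other 2 pairs and in nanos-GAL4, and light grey bars all eligible transcripts. Red bars stand at 39.5%, 59.1% and 39.8%, between the light grey and the dark grey bars in every pair.

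In tests across all transcripts, the edgeR quasi-likelihood F-test of HOW(S)-HA pull-down against input called 0 of 16878 (0%) and thus 0 of the 44 members that passed its filter, with a smallest adjusted p of 0.0687. At an unadjusted p under 0.05 there were 1199 enriched by 1 or more on the log2 scale and 271 depleted by as much. DESeq2's Wald test of the same contrast called 537 (3.18%), 16 members among them. In edgeR, a filter without groups called 405 of 12618 (3.21%), with 20 members, and a fit with no replicate block called 542 of 16878 (3.21%), with 21 members. The study reported enriched transcripts from an edgeR test of this kind, and its methods do not state whether the filter used groups. The count of 0 therefore belongs to the filter with groups and does not stand against the study's count. The interaction of line and condition, which tests the difference between lines itself, called 0 of 16937 (0%) in edgeR, again with 44 members tested, with a smallest adjusted p of 0.382 and 302 higher and 260 lower at an unadjusted p under 0.05. DESeq2 called 23 (0.136%) with a higher ratio in HOW(S)-HA, 5 members among them, and edgeR with no replicate block called 4 (0.0236%), with 0 members. The rule used these contrasts, so nothing is read from the counts of members, and the spread in the interaction comes from the HOW(S)-HA pairs.

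The 2 mirror transcripts shown had the widest gap between nanos-GAL4 and the nearest HOW(S)-HA value, with distances of -3.35 and -3.27 there. FBtr0302280, of 6242 nucleotides, had 5.204, 5.46 and 2.56 TPM in HOW(S)-HA pull-downs and 8.32 TPM in the nanos-GAL4 pull-down, and inputs of 1.64, 1.68 and 1.36 TPM with HOW(S)-HA and 0.260 TPM in nanos-GAL4. FBtr0332265, of 6110 nucleotides, had values of -1.40, -0.23 and -0.12, against 3.15 in nanos-GAL4. In both, a low nanos-GAL4 input took a large part of the distance.

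At the edge of the rule, the 3 members just inside were 2314, 4754 and 1964 nucleotides long. That of 2314 nucleotides had its lowest HOW(S)-HA value at 0.70, in pair 1, that of 4754 nucleotides a smallest distance of 0.71, and that of 1964 nucleotides a lowest value of 0.71. Just outside were transcripts of 3817, 4657 and 4752 nucleotides, with smallest distances of 0.70, 0.70 and 0.69. That of 3817 nucleotides had values of 1.097, 2.96 and 3.32, against 0.40, so membership at this edge separates transcripts of nearly equal values.

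The number of members changed with the settings. With at least 100 reads in every library 13 transcripts met the rule, 11 of them members, and the mirror set held 88. Without centring 96 met it, 28 of them members. With the low input 1 replaced by the mean of inputs 2 and 3, a setting chosen after seeing the data, 97 met it, 44 of them members. In that setting 314 transcripts stood above nanos-GAL4 in all 3 pairs and 266 below, so the mirror set was no longer the larger. Without HOW(S)-HA pair 1, 453 stood above and 385 below. Values were computed in 6 other ways: TMM factors of edgeR, no centring, 1 TPM added, pairs scaled to one spread, the mean of the 3 inputs, and input 1 replaced. The changes of spread and of inputs were not planned beforehand. Under all 6, 12 of the 47 still met the rule, among them the transcripts of 2010, 1156, 3963, 1419 and 3665 nucleotides. With 1 TPM added alone, 16 of the 47 did. how-RB and FBtr0299845 were not among the 12.

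**Figure D5:**
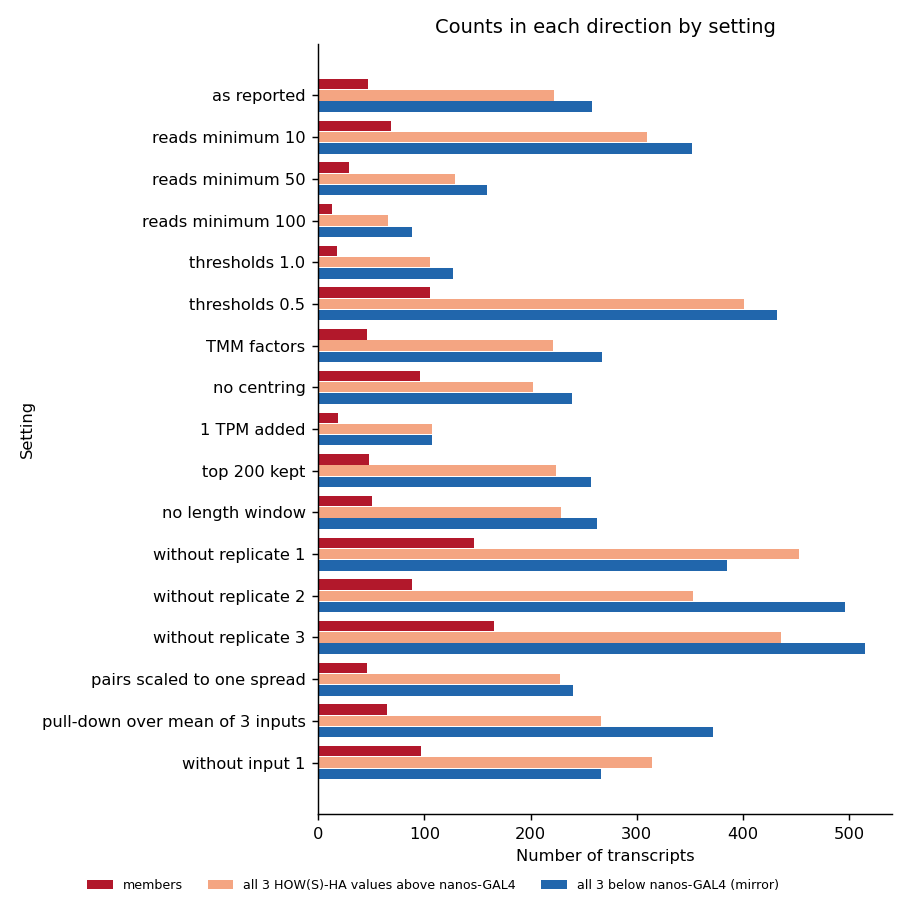
Bars give, for each setting, the number of members, of transcripts with all 3 HOW(S)-HA values above nanos-GAL4 by the threshold, and of mirror transcripts with all 3 below it. As reported these are 47, 222 and 258, and the mirror count is the larger except without replicate 1, without input 1 (314 above, 266 below) and with 1 TPM added, where both are 107.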

How the data were processed

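RNA of testes was measured in 8 libraries. The authors trimmed reads with Cutadapt 1.1, removed rRNA and tRNA reads with Subread 2.0.0 and quantified the rest with Salmon 0.14.2 against FlyBase Release 6 transcripts. The authors deposited TPM, which is relative to the total of each library. They also deposited Salmon's estimated count of reads, which is not normalised, and other columns (length and effective length). All 30070 rows but 1 were transcripts.

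Values were computed with Python 3.11.15 from TPM with no pseudocount. The members, lists and named transcripts were chosen with earlier results of these data known. Named were the 20 members of widest distance, members with a name, the 5 highest in HOW(S)-HA pull-downs and the 3 on each side of the threshold. Of the 20, some past the top 8 are covered only by the ranges over members.

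For the tests, TPM were scaled to library totals and rounded, filtered with filterByExpr (minimum count 10, input and pull-down as groups) and fitted with edgeR 4.0.16 in R 4.3.3 with condition and pair. DESeq2 1.42.0 was an alternative. Calls needed an adjusted p of at most 0.05 (Benjamini-Hochberg) and, for pull-down against input, a log2 fold change of 1. The scripts were tested on simulated data. Input and pull-down of one number come from one lysate per the methods, and their deviations from the condition mean had correlations of -0.07, -0.02 and -0.01. The study describes the 3 pull-downs as independent biological replicates, each from many pooled testes.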

Additional observations from a re-analysis of the deposited data

Results flagged for a closer look

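In 28 members all 3 HOW(S)-HA values were above 0 and the nanos-GAL4 value was below 0, so the lines went in opposite directions from the middle transcript. The rule sets the HOW(S)-HA values of every member above 0, so only the nanos-GAL4 side was free. A nanos-GAL4 value below 0 was found in 59.6% of members, against 50% of eligible transcripts by construction. FBtr0299845 had the lowest nanos-GAL4 value of the 28, -3.28, and FBtr0339087 had -0.54. FBtr0332265 of the mirror set went the other way, with all 3 HOW(S)-HA values below 0 and 3.15 in nanos-GAL4. The opposite direction itself was not tested, nanos-GAL4 has 1 pair, and the members were chosen on these values.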

How the results depend on the processing

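The counts moved with nearly every threshold. With at least 50 reads there were 29 members and 159 mirror transcripts, with at least 100 reads 13 and 88, with thresholds of 1.0 18 and 127, with thresholds of 0.5 105 and 432, and with 1 TPM added 19 and 107. Without centring there were 96 members. Leaving out 1 HOW(S)-HA pair gave 88 to 166 members and 385 to 515 mirror transcripts, since fewer pairs have to meet the rule. Without input 1 there were 97 members, a setting chosen after seeing the data. The share reaching 0.7 in the pair left out became 71.6% (pair 1) and 73.6% (pair 2) without centring. Uncentred, the median eligible transcript stood at 1.17 in pair 1 and 0.73 in pair 2, so it already reached 0.7. The shares without centring therefore say nothing about repeatability. The share became 71.7% (pair 2) with at least 50 reads and 55.6% (pair 3) with 1 TPM added. The cause was not tested for the other changes.

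With no replicate block, the edgeR test of pull-down against input called 542 in place of 0 and the interaction 4 in place of 0, with 21 and 0 members. Pull-down over the mean of the 3 inputs, which drops the pairing and was chosen after seeing the data, gave 65 members. filterByExpr without groups called 405 enriched transcripts, 20 of them members, and DESeq2 called 537 enriched and 23 in the interaction. The counts with a HOW(S)-HA replicate left out were 0 in edgeR for both tests, with fewer libraries to estimate the spread. Of 156 distances of 26 single transcripts under other settings, 0 changed sign and 14 moved by more than 1 SD, all with 1 TPM added. These transcripts were chosen with all their distances on one side of nanos-GAL4. Leaving out a pair could therefore neither change a sign nor move a mean by 1 SD. Changes of centring shifted every distance by the same small amount. Stability under those settings was thus fixed in advance, and nothing is read from it.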
